A study of Mus musculus with 25 samples.

Results

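The introns described here are short introns from which almost all reads were spliced in PyMT-M mouse mammary tumors treated with H3B-8800. H3B-8800 is a splicing modulator, given by mouth, whose target is the SF3B complex. An intron belonged to the set if it spanned 11 to 300 bases, if at least 500 reads overlapped it in the 4 PyMT-M H3B-8800 libraries together, and if at most 2% of those reads lay inside it. The rule picked 1370 introns of 829 genes out of 5791 introns of that length and depth in 2061 genes, or 23.7%. The files list 31179 introns of that length at any depth and 163315 introns with values in all. The other 4421 introns of the same length and depth are called the other short introns below, and 351 of them, with 50% or more of reads inside, are called the retained introns.

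Tumors from 4 mouse models of breast cancer, all triple-negative, were grown at the mammary site of females, 4 to 5 weeks old when transplanted, which then received H3B-8800 or vehicle every day by random assignment. PyMT-M and AT3 tumors grew in C57BL/6 mice and 2208L and T11 tumors in Balb/c mice, and responders are, by their labels, PyMT-M and 2208L, with AT3 and T11 as nonresponders. The 25 libraries of polyadenylated RNA from whole tumors comprise 4 vehicle and 4 H3B-8800 libraries of PyMT-M, 3 and 2 of AT3, 3 and 3 of 2208L and 3 and 3 of T11, each from a separate tumor according to the design text. In bulk tumor RNA, fewer cells of a type and less RNA per cell cannot be told apart, and a low intron percent is an average over the tumor and host cells that made the transcript.

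Introns are removed by the spliceosome, which recognises a 5′ splice site, a branch point and a 3′ splice site. SF3B is the part of the U2 small nuclear ribonucleoprotein that clamps the branch point adenosine, and compounds that occupy its pocket impair the removal of many introns, but not of all to the same degree. Short introns are recognised mostly as a unit across the intron, whereas the exons between long introns are recognised across the exon.

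Libraries held between 10863779 and 22377777 overlapping reads, of which between 7.90% and 27.8% were intronic. The T11 libraries ran against their labels. Over the chosen introns and over the other short introns, those labelled vehicle had a higher percent of reads inside than those labelled H3B-8800. Over all introns the T11 groups overlapped, at 11.5% to 18.1% where labelled vehicle and 9.33% to 11.96% where labelled H3B-8800. The T11 libraries are therefore called by their labels, and no treatment effect is read from them. Where a T11 group is set beside the H3B-8800 groups of other models below, it is the one labelled vehicle. It was taken after seeing that it had the higher percent inside short introns. Transcripts of skeletal muscle or B cells stood out in 6 libraries, T11 vehicle 3, T11 H3B-8800 2, 2208L vehicle 1, PyMT-M H3B-8800 1 and 2 and AT3 vehicle 2. Values without these libraries are given where they change a result. A list of 6 macrophage markers was higher with H3B-8800 in PyMT-M, in 2208L and, by the labels, in T11. Its mean log2(CPM + 1) was 4.43 to 5.94 in PyMT-M vehicle and 6.47 to 6.95 in PyMT-M H3B-8800. It was 5.18 to 7.22 and 7.9997 to 8.21 in 2208L, without overlap in either model. In T11 it was 6.40 to 7.17 where labelled vehicle and 7.22 to 7.37 where labelled H3B-8800. Other lists separated in 2208L too. Basal or myoepithelial markers (2.43 to 3.07 and 3.98 to 4.22) and B and plasma cell markers (0.349 to 0.664 and 1.47 to 1.65) were higher with H3B-8800. Skeletal muscle markers were lower (0.779 to 9.08 and 0.481 to 0.700). Lists separated in AT3 as well, all lower with H3B-8800. They were mesenchymal tumor or fibroblast (7.65 to 8.45 and 7.32 to 7.51), endothelial (4.21 to 4.43 and 3.16 to 3.89) and basal or myoepithelial markers (1.25 to 1.36 and 0.982 to 1.09). T cell, B and plasma cell and epithelial markers were higher in T11 where labelled H3B-8800, also without overlap.

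Sequences of the introns could be read only where an annotated transcript keeps the intron, which was so for 120 of the 1370 still spliced introns and 1224 of the other short introns. Among those, 3 genes held both a still spliced intron and another short intron with at least 20% of reads inside. They are shown because the introns of each pair lie in 1 gene and differed in PyMT-M H3B-8800, the values that chose them. Each sequence is the whole intron on the strand of the gene, 5′ to 3′, from GENCODE M21 transcripts on mm10, with the terminal GT and AG in capitals.
Nabp2 intron 3: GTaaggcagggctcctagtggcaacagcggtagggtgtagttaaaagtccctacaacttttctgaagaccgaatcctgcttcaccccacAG
Nabp2 intron 4: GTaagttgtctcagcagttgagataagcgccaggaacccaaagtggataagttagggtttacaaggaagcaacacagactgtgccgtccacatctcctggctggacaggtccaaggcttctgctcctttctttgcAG
Bckdk intron 3: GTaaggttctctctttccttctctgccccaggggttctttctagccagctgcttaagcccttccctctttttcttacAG
Bckdk intron 11: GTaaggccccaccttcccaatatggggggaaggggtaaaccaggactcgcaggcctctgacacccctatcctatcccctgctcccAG
Pdhb intron 1: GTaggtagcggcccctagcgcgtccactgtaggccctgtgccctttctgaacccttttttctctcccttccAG
Pdhb intron 4: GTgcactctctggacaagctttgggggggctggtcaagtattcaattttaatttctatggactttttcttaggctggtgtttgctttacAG
The first of each pair is the still spliced intron.

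Nabp2 encodes a single-stranded DNA binding protein of the DNA damage response. Its introns 3 (chr10:128408607-128408697, minus strand, 91 bases) and 4 (chr10:128408398-128408534, 137 bases) are neighbours. In PyMT-M with H3B-8800, 0.716% of the reads over intron 3 and 33.8% of the reads over intron 4 were intronic. The contrasts of AT3 and 2208L did not choose the introns. In AT3, intron 4 went from 3.76% ± 0.833 (SD, n = 3) to 20.6% ± 9.16 (n = 2), and in 2208L from 1.14% ± 1.28 (n = 3) to 15.3% ± 5.72 (n = 3) (edgeR adjusted p = 0.0366 and 0.00429). Intron 3 went from 0.188% ± 0.326 to 0.833% ± 1.18 in AT3, and its 2208L values were 0% and 0.383% ± 0.664 (adjusted p = 0.632 and 0.390), on at most 543 overlapping reads per group. The difference between the introns was not tested. Bckdk encodes the kinase that inactivates the branched-chain ketoacid dehydrogenase, and Pdhb encodes a subunit of pyruvate dehydrogenase. The other intron of their pairs was not called in AT3 or 2208L. Bckdk intron 3 (chr7:127905291-127905369) had 1.37% and intron 11 (chr7:127908080-127908166) 21.1% of reads inside in PyMT-M H3B-8800. Bckdk intron 11 was at 3.57% ± 3.57 and 13.9% ± 6.01 in AT3, and at 3.63% ± 2.32 and 18.2% ± 3.83 in 2208L, both short of the threshold (adjusted p = 0.0862 and 0.113). Pdhb intron 1 (chr14:8172818-8172890) had 0.629% and intron 4 (chr14:8171176-8171266) 20.2%, and intron 4 was at 6.46% ± 4.32 in AT3 vehicle and 4.599% ± 0.125 in AT3 H3B-8800 (adjusted p = 0.731). In 2208L the same intron was at 2.18% ± 2.12 and 7.96% ± 3.57 (adjusted p = 0.184). In T11, Bckdk intron 11 was at 16.8% ± 1.54 where labelled vehicle and 0.781% ± 1.35 where labelled H3B-8800. Pdhb intron 4 was there at 7.27% ± 2.03 and 3.94% ± 1.18. GC content did not order the pairs one way: the still spliced intron had 51.6% GC against 50.4% in Nabp2, 49.4% against 60.9% in Bckdk and 58.9% against 42.9% in Pdhb.

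The percent of reads inside an intron divides intronic by overlapping reads, and it was pooled over each class of introns in each library. Over the 1370 still spliced introns it was 0.428, 0.272, 0.301 and 0.522% in the 4 PyMT-M vehicle libraries and 0.981, 0.791, 0.577 and 0.823% in the 4 H3B-8800 libraries. The groups did not overlap, so even the introns chosen for a low percent had more intronic reads with the drug. Because the rule used these H3B-8800 libraries, the values are a description. The mean rose from 0.381% ± 0.116 to 0.793% ± 0.166, or 2.08 times, while that of the other short introns went from 3.89% ± 0.817 to 12.9% ± 1.91, or 3.31 times.

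**Figure D1:**
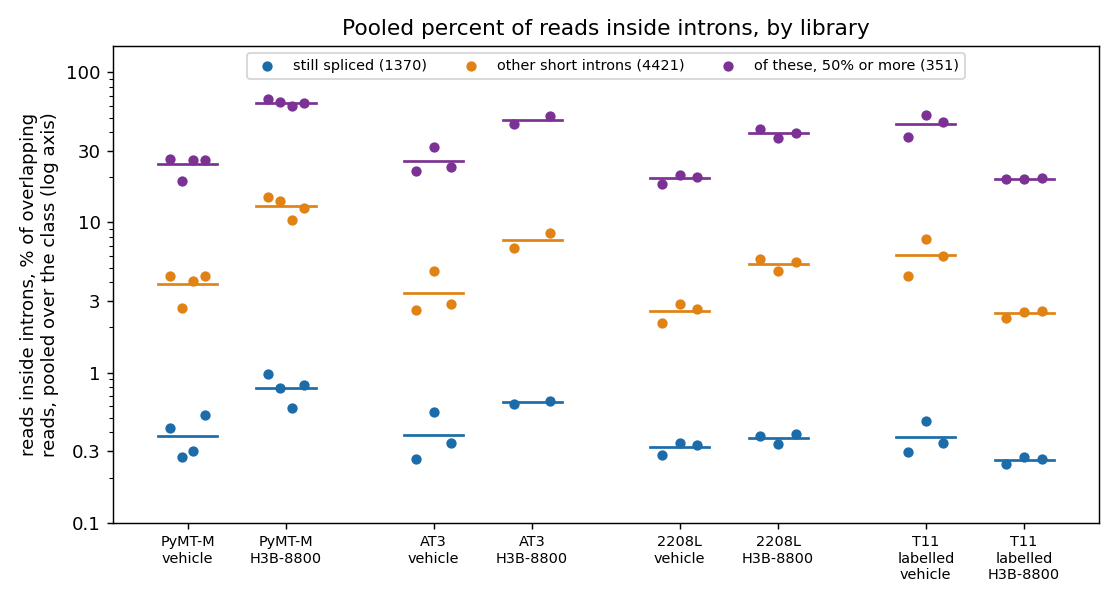
Reads inside introns as a percent of overlapping reads, pooled over each class of introns (log axis), for each of the 25 libraries by model and treatment; points are libraries and lines are group means. The still spliced introns lie between 0.246% and 0.981% in every library, and the other short introns between 2.15% and 14.8%.

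In AT3, which the rule did not use, the still spliced introns were at 0.265, 0.550 and 0.341% in the vehicle libraries and at 0.618 and 0.647% in the H3B-8800 libraries. The groups did not overlap, and the mean was 1.64 times as high with the drug, against 2.24 times for the other short introns, which went from 3.40% ± 1.16 to 7.61% ± 1.22. In 2208L the mean was 0.318% ± 0.0305 with vehicle and 0.368% ± 0.0286 with H3B-8800, or 1.16 times, and the libraries of the groups overlapped. The other short introns of 2208L went from 2.55% ± 0.366 to 5.32% ± 0.504, or 2.09 times, without overlap. In T11 the still spliced introns were at 0.371% ± 0.0937 where labelled vehicle and 0.262% ± 0.0138 where labelled H3B-8800, and the other short introns at 6.04% ± 1.70 and 2.48% ± 0.138.

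The choice held when a library was set aside. When the set was chosen from 3 of the PyMT-M H3B-8800 libraries at the same depth minimum, between 78.0% and 92.3% of the chosen introns with at least 100 reads in the library left out were at or under 2% there, against 2.50% to 10% of the introns not chosen. The lowest share belonged to H3B-8800 library 1, which also had the highest share of intronic reads over all introns. Of the 1370 introns, 943 were at or under 2% in each of the 4 libraries, 148 had no intronic read in any of them, and 35 took over 50% of their reads from 1 library. The exact (Clopper-Pearson) 95% upper limit was at or under 2% for 991, and 356 of the other short introns had a lower limit at or under 2%. Reads without molecular identifiers are not independent molecules, so these limits cover counting error only.

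Introns already at or under 2% without the drug are a narrower comparison, since many of the other short introns were partly retained in vehicle tumors. Start levels under 2% were not matched. Over introns with at least 100 pooled reads, the AT3 vehicle median was 0.159% for the still spliced and 2.21% for the other short introns. In 2208L vehicle these medians were 0.0482% and 1.27%. The part of the start level in the shares below was not tested. With at least 100 pooled reads required in each group, 1028 of the still spliced introns were at or under 2% in AT3 vehicle, and 964 of these, or 93.8%, were still at or under 2% in AT3 H3B-8800. Of 1703 other short introns that were also at or under 2% in AT3 vehicle, 514 stayed there in AT3 H3B-8800, or 30.2%. Without AT3 H3B-8800 library 2 the share of the other short introns was 46.9%. In 2208L the counts were 1214 of 1236 still spliced introns, or 98.2%, and 1281 of 2508 other short introns, or 51.1%. In T11, of introns low in the libraries labelled H3B-8800, 1159 of 1192 still spliced introns, or 97.2%, and 1110 of 2256 other short introns, or 49.2%, were also low in the libraries labelled vehicle.

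The difference was present at every depth. In AT3 the share that stayed low ran from 91.0% to 96.8% over 4 classes of depth for the still spliced introns and from 27.5% to 45.1% for the other short introns. In 2208L it ran from 97.0% to 99.4% and from 45.9% to 70.6%. The median percent in AT3 H3B-8800 of the introns low in vehicle was 0.469% for the still spliced and 3.18% for the other short introns. In 2208L H3B-8800 these medians were 0.200% and 1.95%.

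**Figure D2:**
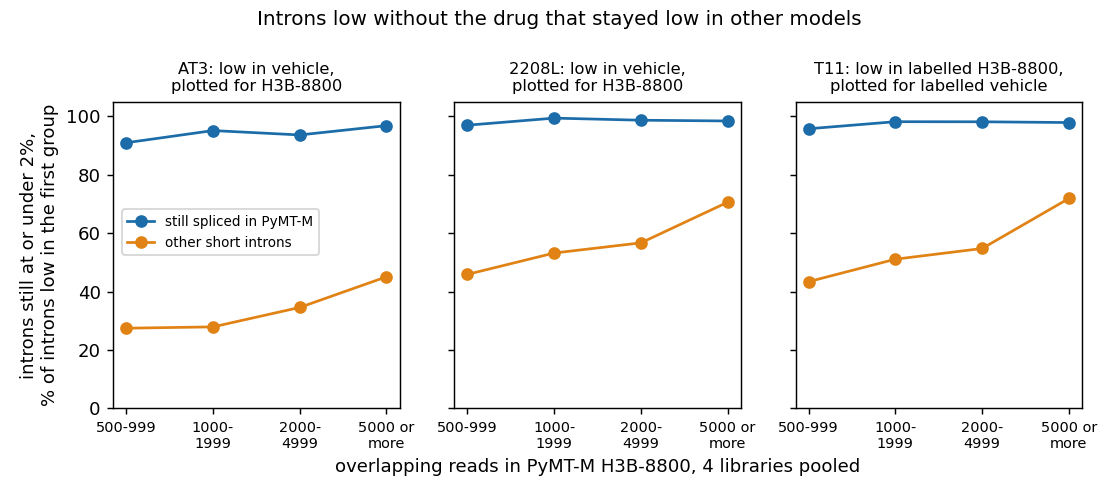
Share of introns at or under 2% in the first group of a model that were also at or under 2% in the second group, by overlapping reads in PyMT-M H3B-8800 (pooled over 4 libraries), for the still spliced introns and the other short introns. The still spliced introns stayed low in at least 91.0% of cases in every class, and the other short introns in at most 71.9%.

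The percent of an intron carried over between models. Across short deep introns with at least 100 pooled reads, the percent in PyMT-M H3B-8800 had a Spearman correlation of 0.902 with that in AT3 H3B-8800 (4595 introns), 0.887 with that in 2208L H3B-8800 (5450 introns) and 0.888 with that in the T11 libraries labelled vehicle (5112 introns). These points are introns, not replicates, and share the aligner, the annotation and the mappability of each locus. Of 1050 still spliced introns with that depth in all 3 of these groups, 941 were at or under 2% in all 3, or 89.6%. The count was 435 of 3449 for the other short introns, or 12.6%, and 0 of 238 for the retained introns.

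Each intron was also tested for a change in intronic reads relative to the spliced reads of its gene (edgeR quasi-likelihood, Benjamini-Hochberg adjusted p under 0.05 over 88387 introns). In AT3, 10.3% of all introns tested were called higher with H3B-8800 and 0.146% lower. Of the still spliced introns 10 were called higher and 0 lower, with 83 at an unadjusted p under 0.05 in either direction, and DESeq2 called 24 higher. Of the other short introns 770 were called higher and 0 lower. The AT3 counts rest on single libraries: without vehicle 1, vehicle 3 or H3B-8800 library 2, 1 still spliced intron was called each time, and 280, 342 and 177 of the other short introns. In 2208L, 10.8% of all introns were called higher and 0.243% lower, against 9 and 2 of the still spliced introns and 820 and 6 of the other short introns. Without vehicle 1, the 2208L library with muscle transcripts, the counts called higher were 3 and 349. In T11, 0.382% of all introns were called higher in the libraries labelled H3B-8800 and 11.1% lower, against 1 and 16 of the still spliced introns and 2 and 940 of the other short introns.

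The median log2 difference of the still spliced introns was 0.14 in AT3 and 0.00 in 2208L. The medians over all introns tested were 0.97 and 0.91. An intron without intronic reads in both groups gets a fitted difference of 0. Of the still spliced introns, 47.0% to 65.8% had no intronic read in each AT3 library and 53.1% to 71.8% in each 2208L library. Their medians therefore do not show an absence of change. The counts of calls depend on depth inside the intron. Only 240 of the still spliced introns averaged at least 5 intronic reads per library. A low count of calls does not show that the rest did not change. In PyMT-M, whose drug libraries chose the introns, 40.0% of all introns tested were called higher and 4.29% lower, against 221 and 9 of the still spliced introns and 3064 and 17 of the other short introns.

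The still spliced introns were not the shortest. They made up 14.4% of the 416 short deep introns of 11 to 80 bases, 26.6% of the 2108 above 80 and up to 120 bases, 25.8% of the 1666 above 120 and up to 200 bases and 19.99% of the 1601 above 200 bases. Their median length was 128 bases, against 138 for the other short introns and 193 for the retained introns. A longer intron collects more reads when it is kept. Classes cut at a fixed percent therefore depend on length for that reason too, and these shares do not compare retention between lengths. Depth ordered the still spliced introns more steeply. They made up 17.7% of the introns with 500 to 999 overlapping reads, 23.97% of those with 1000 to 1999, 32.5% of those with 2000 to 4999 and 48.5% of those with 5000 or more. The retained introns made up 8.73% of the first class and 0.686% of the last. Depth here is the number of reads over the intron in PyMT-M H3B-8800, so it follows the level of the transcript, and retention lowers the reads spliced across it.

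**Figure D3:**
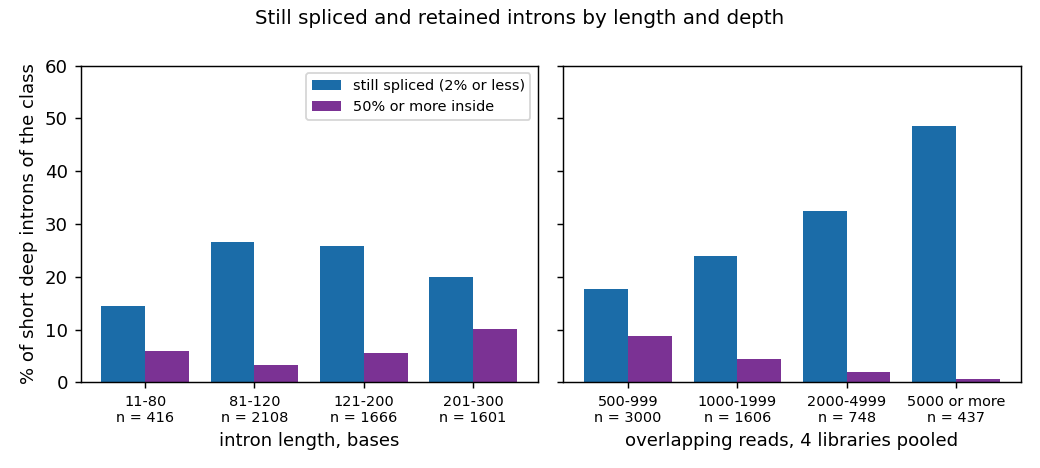
Percent of short deep introns (at least 500 overlapping reads in PyMT-M H3B-8800) that were still spliced or retained, by intron length and by overlapping reads, with the number of introns in each class. The share of still spliced introns rose from 17.7% to 48.5% over the classes of depth, and was lowest, at 14.4%, in the shortest class of length.

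Introns of collagen and other matrix genes had the highest share among the 13 gene lists examined. These shares use the values that chose the introns and are given as counts. Collagen chains form the fibrils and basement membrane networks of the extracellular matrix, and their genes are built of many small exons. All 15 collagen chain genes with short deep introns held still spliced ones. Of their 170 short deep introns, 142 were still spliced, or 83.5%, against 21.8% of the introns of all other genes, and none was retained. The difference was also present at low depth: of 110 collagen introns with 500 to 999 reads, 86 were still spliced, or 78.2%, against 15.4% of the introns of other genes in that class. Matrix genes other than collagens were not like them, with 5 of 27 introns still spliced, or 18.5%.

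The genes with the most still spliced introns were Col1a1 (32 of 40 short deep introns), Col3a1 (17 of 17) and Col1a2 (14 of 15), which encode the chains of fibrillar collagens I and III. They were followed by Col16a1 (12 of 15), Col11a1 (11 of 12) and Col4a1 (11 of 11), which encode chains of collagens XVI, XI and IV. Col1a1 intron 48 (chr11:94950574-94950708, 135 bases) had 3 intronic of 2038 overlapping reads in PyMT-M vehicle, 5 of 2128 in PyMT-M H3B-8800, 3 of 3850 in 2208L vehicle and 2 of 5541 in 2208L H3B-8800. In AT3 it had 0 of 460 with vehicle and 2 of 171 with H3B-8800 (adjusted p = 0.209). Col3a1 intron 25 (chr1:45334651-45334760, 110 bases) had 0.469, 0.365, 0.364 and 0.160% of reads inside in the PyMT-M H3B-8800 libraries, and 0.0556, 0.0925 and 0.0455% in AT3 vehicle and 0.118 and 0.476% in AT3 H3B-8800. Its AT3 groups did not overlap, but the difference missed the threshold (adjusted p = 0.304). Col1a2 intron 22 (chr6:4521285-4521395) had no intronic read in any of the 25 libraries, with 1591 overlapping reads in PyMT-M H3B-8800.

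Pooled over the 170 collagen introns, the percent was 0.323% ± 0.196 (SD, n = 4) in PyMT-M vehicle and 0.798% ± 0.143 (n = 4) in PyMT-M H3B-8800. It was 0.286% ± 0.115 (n = 3) in AT3 vehicle and 0.609% ± 0.0470 (n = 2) in AT3 H3B-8800, and 0.141% ± 0.0446 and 0.222% ± 0.0284 (n = 3 each) in 2208L. The groups of these 3 models did not overlap, so collagen introns had more reads inside with the drug, at levels under 1%. In T11 the values were 0.376% ± 0.199 where labelled vehicle and 0.151% ± 0.0402 where labelled H3B-8800, also without overlap. Whole tumors were sequenced, and a list of mesenchymal tumor or fibroblast markers that itself holds Col1a1, Col1a2 and Col3a1 had a mean log2(CPM + 1) of 7.09 to 8.02 in PyMT-M H3B-8800 and 10.4 to 10.7 in the T11 libraries labelled H3B-8800. Which cells made the collagen transcripts, and how much drug reached them, was not tested.

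**Figure D4:**
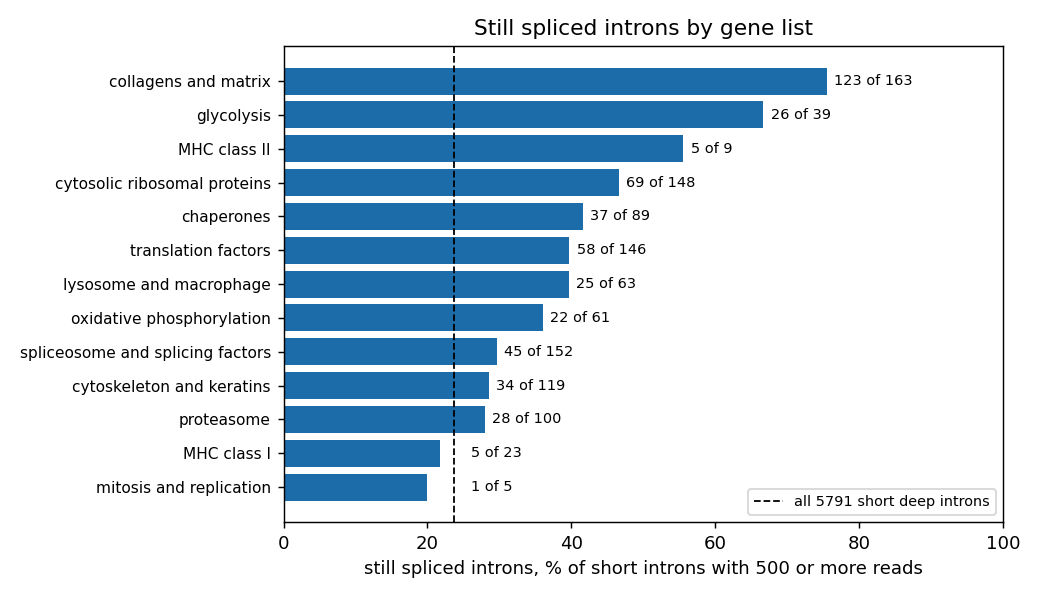
Percent of short deep introns that were still spliced in PyMT-M H3B-8800, by gene list, with the counts behind each bar; the dashed line is the 23.7% of all 5791 short deep introns. Collagens and matrix genes (75.5%) and glycolysis (66.7%) have the highest shares, and MHC class I (21.7% of the listed genes' introns) and mitosis and replication (20%) lie under the line.

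Glycolysis genes came next, with 26 of 39 short deep introns still spliced, or 66.7%, in 10 of 12 genes. Pkm, which encodes pyruvate kinase, had 0.265% of 20353 reads inside intron 4 (chr9:59668681-59668912) and 0.634% of 20672 inside intron 7 (chr9:59671726-59671920). In 2208L, Pkm intron 7 was at 0.0698% ± 0.0297 with vehicle and 0.368% ± 0.120 with H3B-8800 (adjusted p = 0.110). Genes of MHC class II, which presents antigen to helper T cells, had 5 of 9 introns still spliced, among them introns 2 and 5 of Cd74, the invariant chain (0.151% of 13869 and 0.475% of 13066 reads inside).

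Cytosolic ribosomal protein genes had 69 of 148 short deep introns still spliced, or 46.6%, in 46 genes, and 4 retained. These 148 introns had a median depth of 9040 reads, and 48.5% of all short introns with 5000 or more reads were still spliced, so the share of the ribosomal introns was near that of deep introns in general. Rpl7 intron 4 (chr1:16102600-16102691) had 0.110% of 20018 reads inside, and Rps29 intron 1 (chr12:69158761-69158996) 0.390% of 35117. Translation factor genes had 58 of 146 introns still spliced, or 39.7%, and no retained intron, with 9 in Eif4g1, the scaffold of the cap-binding complex. Eef1a1, which encodes the elongation factor that brings tRNA to the ribosome, kept all 6 of its short deep introns low.

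Chaperone genes had 37 of 89 introns still spliced, or 41.6%. Hsp90ab1, the constitutive HSP90, held 7, and 0.680% of 20597 reads were inside its intron 5 (chr17:45570567-45570665). The lysosome and macrophage list had 25 of 63, or 39.7%, and oxidative phosphorylation 22 of 61, or 36.1%, among them intron 4 of Atp5b, the catalytic subunit of ATP synthase (1.71% of 16865 reads). Cytoskeleton and keratin genes had 34 of 119, or 28.6%, and proteasome genes 28 of 100, or 28.0%. The MHC class I list had 5 of 23, or 21.7%, and mitosis and replication 1 of 5, Pcna intron 2. The class I list leaves out H2-Q1 (6 of 6), H2-Q2 (5 of 5) and H2-T10 (4 of 9), so its share does not stand for the family, whose near-identical copies make these counts uncertain. The lists were compared by counts alone, beside the 23.7% of all short deep introns. Their depths differ: the median was 3522 reads for chaperones, 2492 for oxidative phosphorylation, 2226.5 for translation factors and 2008 for the lysosome and macrophage list, and 32.5% of all short introns with 2000 to 4999 reads were still spliced.

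Spliceosome and splicing factor genes had 45 of 152 short deep introns still spliced, or 29.6%, and 5 retained. Sf3b1, which encodes the largest subunit of the complex that H3B-8800 binds, had 24 introns in the files, and all 9 of the short deep ones were still spliced, at 0% to 0.641%. Sf3b1 intron 19 (83 bases) had 2 of 488, 1 of 480, 0 of 360 and 1 of 537 reads inside in PyMT-M vehicle. With H3B-8800 it had 8 of 710, 3 of 652, 2 of 575 and 3 of 560, a difference that missed the threshold (edgeR adjusted p = 0.398). Pooled over libraries, intron 19 was at 0.186% with vehicle and 0.122% with H3B-8800 in AT3, and at 0.104% and 0.0598% in 2208L. In PyMT-M the pooled percent of introns 12, 14 and 16 was also higher with H3B-8800. That of introns 3, 13 and 15 was lower, and introns 8 and 10 had no intronic read in either group. The other 15 Sf3b1 introns, longer than 300 bases, ran from 0% to 19.3%, with the highest values in introns 6 (4384 bases, 19.3%), 22 (3754 bases, 17.4%) and 4 (1813 bases, 14.03%). A longer intron collects more reads when it is kept, so percents of introns of different length are not compared as retention. Hnrnpa2b1, an RNA-binding regulator of splicing, had 0.986% of 12980 reads inside intron 5 (chr6:51466223-51466302) and 0.656% of 9450 inside intron 4 (chr6:51466405-51466494).

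By reads pooled over the 4 libraries, the deepest still spliced introns in PyMT-M included introns of secreted proteins of glands. Scgb1b27 intron 1 (378689 reads, 0.527% inside), Mup19 intron 5 (206254 reads, 0.000485%), Pip intron 3 (105820 reads, 0.709%), Ltf intron 3 (44321 reads, 0.259%) and Clca3a2 intron 5 (35574 reads, 1.24%) encode a secretoglobin, a major urinary protein, prolactin-inducible protein, lactoferrin and a chloride channel accessory protein. Reads over Pip intron 3 ranged from 773 to 80961 in the 8 PyMT-M libraries, highest in H3B-8800 library 3, and there were none in the other models. The same library held 176783 of the 206254 reads over Mup19 intron 5 and 218609 of the 378689 over Scgb1b27 intron 1, so their rank rests on 1 tumor. Scgb1b27, Mup19 and Clca3a2 have near-identical relatives, so their reads could be split among copies. All 5 had at most 2 overlapping reads per group in AT3 and T11 and drop out of those comparisons. In 2208L, Clca3a2 intron 5 went from 0.581% (6 reads inside) to 4.71% (12 reads inside), pooled over 3 libraries each (adjusted p = 0.0283).

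Eef1a1 intron 2 (chr9:78480421-78480510, 90 bases) was deep in every model. It had 0.0919, 0.0385, 0.0837 and 0.0348% of reads inside in PyMT-M vehicle and 0.352, 0.351, 0.362 and 0.463% in PyMT-M H3B-8800. In AT3 it had 0.0684, 0.141 and 0.0989% with vehicle and 0.259 and 0.291% with H3B-8800 (log2 difference 1.30 ± 0.60, adjusted p = 0.159). In 2208L it had 0.0329, 0.0882 and 0.0156% with vehicle and 0.170, 0.136 and 0.279% with H3B-8800 (log2 difference 2.25 ± 0.61, adjusted p = 0.00851). Every H3B-8800 library of these models lay above every vehicle library of the same model, at under 0.5% of reads. Depths of 8624 to 41292 reads per library made this small difference measurable. Its neighbour, intron 3 (chr9:78480149-78480240, 92 bases, 35.9% GC), and intron 2 of Fth1 (chr19:9984328-9984559, 232 bases, 48.3% GC), the heavy chain of the iron store ferritin, are shown as examples of abundant still spliced introns.
Eef1a1 intron 3: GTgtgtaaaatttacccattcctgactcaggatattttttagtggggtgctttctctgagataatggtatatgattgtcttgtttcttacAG
Fth1 intron 2: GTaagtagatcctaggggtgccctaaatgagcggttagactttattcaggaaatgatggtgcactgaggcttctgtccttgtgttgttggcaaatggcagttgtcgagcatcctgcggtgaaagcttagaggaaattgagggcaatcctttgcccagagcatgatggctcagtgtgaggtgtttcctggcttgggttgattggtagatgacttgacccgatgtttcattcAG
Eef1a1 intron 3 had 0.334% of 46994 reads inside in PyMT-M H3B-8800. Fth1 intron 2 had 1.06% of 34690 reads inside, and its mean was 0.933% ± 0.403 with vehicle and 1.04% ± 0.230 with the drug (n = 4 each), a difference smaller than either SD.

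Still spliced introns clustered within genes. Among still spliced introns with another short deep intron in the gene (1096), a mean of 47.7% of those others were still spliced. For the other short introns (3812) it was 15.03%. These means are over introns, so genes with many still spliced introns, such as Col1a1 with 32, weigh most. Introns of a gene also tend to share depth, over whose classes the share of still spliced introns rose from 17.7% to 48.5%. The part of depth was not tested. In 91 of 555 genes with a still spliced intron and at least 2 short deep introns, all of these were still spliced. The genes were far from uniform, however, since 587 genes held a single still spliced intron, and 17 genes held both a still spliced and a retained intron.

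Hnrnpl, which encodes an RNA-binding protein that regulates alternative splicing, held both kinds at the same length. Intron 3 (chr7:28814092-28814201, 110 bases) had 1, 0, 2 and 5 reads inside of 500, 434, 400 and 539 in the PyMT-M H3B-8800 libraries. Intron 7 (chr7:28818533-28818643, 111 bases) had 446 of 566, 493 of 600, 378 of 487 and 393 of 508. In 2208L, intron 7 went from 28.7% ± 2.45 to 69.5% ± 1.55 (log2 difference 1.92 ± 0.41, adjusted p = 0.000707), and intron 3 from 0.211% ± 0.365 to 0.130% ± 0.118 (adjusted p = 0.971). In AT3, intron 7 was at 54.2% ± 2.50 and 69.4% ± 1.12 (adjusted p = 0.354), and intron 3 at 0.0882% ± 0.153 and 0%. Every H3B-8800 library of both models lay above every vehicle library for intron 7, and none of the groups was separated for intron 3.

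Rpl10, a protein of the large ribosomal subunit encoded on the X chromosome, showed the same contrast with the longer intron still spliced. Intron 4 (chrX:74271908-74272178, 271 bases) was at 1.33% ± 0.240 in PyMT-M vehicle and 1.29% ± 0.404 in PyMT-M H3B-8800, at 0.925% ± 0.420 and 1.10% ± 0.0384 in AT3, and at 0.777% ± 0.246 and 0.635% ± 0.306 in 2208L. None of these differences passed the test (adjusted p = 0.859 in AT3 and 0.817 in 2208L). In AT3, intron 1 (chrX:74270875-74270978, 104 bases) went from 30.2% ± 2.50 to 53.1% ± 4.00, and in 2208L from 40.5% ± 10.7 to 57.2% ± 4.59 (adjusted p = 0.0119 and 0.00181). In T11 it was at 52.7% ± 5.77 where labelled vehicle and at 27.3% ± 3.24 where labelled H3B-8800.

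Spop, the substrate adaptor of a ubiquitin ligase, gave a pair of another kind. Intron 5 (chr11:95474383-95474484, 102 bases) had 4 reads inside of 1015 in PyMT-M H3B-8800, all 4 in library 2, and none in any other library of the study. Intron 1 (chr11:95414132-95414331, 200 bases) had 96.2% ± 0.360 of reads inside in PyMT-M vehicle and 98.3% ± 0.531 in PyMT-M H3B-8800, so it was kept in nearly all reads with and without the drug. Other genes with both kinds included introns 12 and 5 of Stap2 (1.44% and 64.5%), 11 and 12 of Gltscr2 (1.54% and 63.0%), 8 and 6 of Cers2 (1.85% and 59.8%) and 7 and 5 of Ldhd (1.14% and 70.5%).

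**Figure D5:**
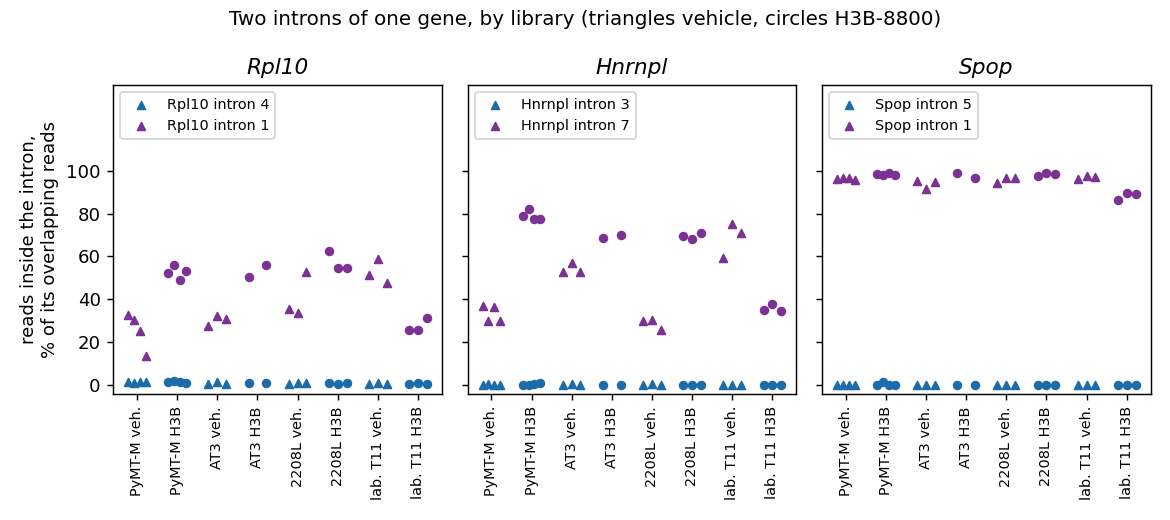
Percent of reads inside a still spliced intron and a retained intron of Rpl10, Hnrnpl and Spop in each library, by model and treatment (veh., vehicle; H3B, H3B-8800; lab., as labelled), with triangles for vehicle and circles for H3B-8800. The still spliced introns stay under 2% in every library, and Hnrnpl intron 7 reaches 77.4% to 82.2% in PyMT-M H3B-8800.

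The few still spliced introns that were called higher elsewhere rose to low levels. In AT3 the largest fitted changes were in introns with no read inside in vehicle tumors. Rnaseh2c intron 1 (chr19:5602081-5602192), of a subunit of ribonuclease H2, went from 0 of 251 reads to 5.98% of 184, at least 5.00-fold higher against a limit of 3 reads over the group. Gnai2 intron 2 (chr9:107620189-107620419), of an inhibitory G protein, went from 0 of 2173 to 1.18% (at least 8.56-fold). Eif3i intron 7 (chr4:129593432-129593525), of a translation initiation factor, went from 0 of 3168 to 0.695% (at least 7.34-fold), and Pcbp2 intron 2 (chr15:102474155-102474246), of a poly(C)-binding protein, from 0 of 4095 to 0.355% (at least 4.85-fold). Their adjusted p-values in edgeR were 0.0391, 0.0363, 0.0220 and 0.0487. These calls rest on 10 to 17 intronic reads per intron and on single libraries. Without AT3 vehicle 2, the library with B cell transcripts, Rnaseh2c, Gnai2 and Pcbp2 missed the threshold (adjusted p = 0.0692, 0.0775 and 0.0880) and Eif3i intron 7 kept it (0.0498). Without AT3 H3B-8800 library 2, all 4 missed it, at adjusted p-values from 0.130 to 0.341. Over all fits that left out 1 library the log2 differences stayed between 5.64 and 6.48 for Rnaseh2c, 5.18 and 6.64 for Gnai2, 4.83 and 5.85 for Pcbp2 and 4.08 and 6.62 for Eif3i intron 7, fitted values that depend on the prior count because vehicle is at 0.

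In 2208L, Anxa1 intron 2 (chr19:20384584-20384692, 109 bases), of the phospholipid-binding protein annexin A1, had 0 of 2414, 2333 and 1925 reads inside with vehicle. It had 27 of 4769, 12 of 4053 and 10 of 5223 with H3B-8800, at least 7.76-fold higher (adjusted p = 0.00484). The same intron went from 0.0451% ± 0.0399 to 0.515% ± 0.390 in AT3 (adjusted p = 0.0485). Anxa5 intron 1 (chr3:36475461-36475572), of annexin A5, went from 0.0394% ± 0.0682 to 0.691% ± 0.106 in 2208L (adjusted p = 0.0341), and Eif3i intron 10 (chr4:129592135-129592266) from 0.0574% ± 0.0994 to 1.57% ± 1.22 (adjusted p = 0.0141). Anxa5 intron 1 holds an annotated exon, which another transcript could fill, and its call was lost when any of the 6 libraries was left out. Eif3i intron 10 lost its call without vehicle 1, vehicle 3 or H3B-8800 library 3.

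Hspa8 intron 3 (chr9:40802624-40802738, 115 bases), of the constitutive heat shock protein HSC70, was the exception in level. In 2208L it went from 3.11% ± 2.96 to 37.5% ± 13.5 (adjusted p = 0.00314), but on 221 overlapping reads with vehicle and 132 with H3B-8800. PyMT-M H3B-8800 had 15913 reads over it, with 0.987% inside. The few reads in 2208L and T11, both grown in Balb/c mice, are described with the closing observations.

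Rps16 intron 1 (140 bases), of a protein of the small ribosomal subunit, was chosen for its values and is the 1 still spliced intron called in AT3, 2208L and T11. In AT3 it went from 0.126% ± 0.0411 to 0.712% ± 0.499, and in 2208L from 0.147% ± 0.110 to 0.787% ± 0.186 (adjusted p = 0.0153 and 0.00974). In T11 it was at 1.14% ± 0.480 where labelled vehicle and 0.108% ± 0.0758 where labelled H3B-8800 (adjusted p = 0.000366). In none of the 3 models did the groups overlap. In PyMT-M, whose drug libraries chose it, the intron was at 0.202% ± 0.134 with vehicle and 1.87% ± 0.535 with H3B-8800. Pooled over the H3B-8800 libraries it was at 1.95%, just inside the threshold of 2%.

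Only 2 still spliced introns were called lower in 2208L. Psap intron 7 (chr10:60300059-60300147, 89 bases), of the precursor of the saposins that help lysosomal lipid breakdown, fell from 0.587, 0.543 and 0.733% to 0.128, 0.150 and 0.106% (log2 difference -2.30 ± 0.71, adjusted p = 0.0245). The call was lost without vehicle 1 or 3 or any H3B-8800 library, at adjusted p-values from 0.0537 to 0.0863, with log2 differences between -2.43 and -2.15 over all 6 fits. In PyMT-M it was at 2.02% ± 0.708 with vehicle and 0.864% ± 0.292 with H3B-8800, and in AT3 at 1.44% ± 0.871 and 1.82% ± 0.729 (adjusted p = 0.820). Adh5 intron 7 (chr3:138454807-138455084), of an alcohol dehydrogenase that clears formaldehyde, fell from 2.60% of 692 reads to 0 of 429, at least 3.72-fold lower (adjusted p = 0.0407), and missed the threshold when any of the 6 libraries was left out, always lower with the drug.

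The position of the still spliced introns in their genes was compared with that of the other short introns, as shares without a test. Fewer were kept in an annotated transcript: an exon of GENCODE M21 spanned 8.76% of the still spliced introns (exact 95% interval 7.32 to 10.4), 27.7% of the other short introns (26.4 to 29.0) and 53.6% of the retained introns (48.2 to 58.9). The order was the same in each of 4 classes of length. They also lay less often beside another short intron, with an intron of at most 300 bases next to 49.0%, 67.6% and 74.1% of the 3 classes. The median length of the intron upstream was 603 bases for the still spliced, 290 for the other short and 189.5 for the retained introns, and downstream it was 568, 258 and 148 bases.

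The exons around them differed less. In the 50 exon bases on each side, counted jointly, the median GC content was 52% for the still spliced, 54% for the other short and 56% for the retained introns. The upstream exon ended in G in 80.3%, 80.3% and 81.8%. The downstream exon began with G in 57.2% (54.6 to 59.9), 50.3% (48.8 to 51.8) and 44.4% (39.2 to 49.8). First introns of a gene made up 5.84%, 6.76% and 10.5%, last introns 12.8%, 14.1% and 15.4%, and introns within the coding part 98.5%, 97.8% and 94.3%. Of the 120 still spliced introns with sequence, 118 ended in GT and AG. The exceptions were the entries of 11 and 12 bases of H2-T10, too short for an intron that the spliceosome can remove. With sequence for under 80% of each class, GC content, splice site strength and branch point motifs of the introns themselves could not be compared.

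The genes that host the still spliced introns were tested by their spliced reads (edgeR, 13001 genes). Retention of an intron lowers the reads spliced across it. In every model these counts therefore cannot tell a change in transcript level from a change in splicing. In PyMT-M, 10.2% of all genes were called higher with H3B-8800 and 14.6% lower. Of the 829 host genes 165 were called higher, or 19.9%, and 39 lower, or 4.70%. Of the 1232 genes with only other short introns 140 were called higher and 141 lower. Spliced reads in these libraries set the depth that the rule requires, so this split is a description. The macrophage markers given above were also higher with H3B-8800 in PyMT-M and 2208L and in the T11 libraries labelled H3B-8800. Their part in the counts of host genes was not tested. In 2208L, 4.67% of all genes were called higher and 5.67% lower, against 59 (7.12%) and 35 (4.22%) of the host genes. In AT3 the shares were 0.123% and 0.177%, and 3 host genes were called higher and 0 lower, or 18 and 3 by DESeq2. Without AT3 H3B-8800 library 2, 62 host genes were called higher. In T11, 6.66% of all genes were called higher where labelled H3B-8800 and 5.07% lower, against 26 (3.14%) and 96 (11.6%) of the host genes.

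The edges of the rule are given by the values it used. Pycr1 intron 4 (2.00%), Hsd17b10 intron 5 (1.997%) and Srsf6 intron 5 (1.991%) lay just inside the threshold of 2%, and Naca intron 4 (2.001%), Clptm1l intron 14 (2.006%) and Ddx3x intron 12 (2.009%) just outside. At the depth minimum, Dync1h1 intron 55 (500 reads), Tpm2 intron 4 (501) and Faim intron 1 (501) lay inside, and Pts intron 5 (498), Vars intron 16 (497) and Itpa intron 2 (497) outside. The shortest entry after H2-T10 was Eef2 intron 11 (chr10:81181158-81181227, 70 bases, 1.84%), and the longest were Tpt1 intron 3 and Erbb2ip intron 12, at 300 bases each, with 0.481% and 0.159% of reads inside.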

How the data were processed

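The authors deposited 1 table per library of intronic reads and overlapping reads per intron, both raw counts, with an RPKM value that was not used. Reads were aligned with HISAT2 2.0.4, and mm10 and hg38 are the builds named, per the submitters' processing notes; the sources used here name neither the counting tool nor the annotation release. Of 163337 introns, 22 of at most 10 bases hold no values and were left out. Libraries were polyadenylated, stranded RNA, per the labels' protocols. The members and gene lists were chosen with earlier results of these data known.

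From these counts, the percent inside an intron was computed per library or pooled over a group, and spliced reads as overlapping minus intronic reads. Introns with a mean of at least 20 overlapping reads (88387) were tested with edgeR 4.0.16 (R 4.3.3, quasi-likelihood, 8 group means over all 25 libraries), offset by log(spliced reads of the gene + 0.5), which makes each change relative to the host gene. Host genes were tested with TMM scaling on 13001 genes with at least 1 CPM in at least 2 libraries. Adjusted p-values are Benjamini-Hochberg over all introns or genes tested, and the models share 1 estimate of the spread. Both tests were tested on simulated data. For the intron test, changes were simulated only in introns averaging at least 5 intronic reads per library. Recovery of changes in introns below that, which are most of the still spliced introns, was not examined. DESeq2 1.42.0, other offsets, filters, thresholds and leaving out libraries were alternatives. P-values measure the spread between tumors.

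Named introns are those with most reads, the largest called changes in AT3 and 2208L, the edges of the rule, members in a gene with a retained intron, the deepest of each list and of the genes with most members. Rps16 intron 1, the 3 sequence pairs, Eef1a1 intron 3, Sf3b1 intron 19, H2-T10 and the introns of the strain comparison were chosen outside this rule, after their values or sequences were seen. Introns were matched to GENCODE M21, and neighbouring exons were read from its transcripts. Depth per library is 10863779 to 22377777 overlapping reads. A read over several introns counts in each. Counts of 0 are given a limit of 3 reads over the group.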

Additional observations from a re-analysis of the deposited data

Results flagged for a closer look

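Among 38 groups of 4 PyMT-M libraries, 5 held a library far from the other 3. Chance sets about 1 in 20 groups of a continuous measure apart, a rate that does not hold where the other 3 libraries are at 0, as in 3 of the 5. In vehicle library 2 the retained introns had 18.8% of reads inside, under the other vehicle libraries, and the same library had the 1 vehicle value above 0 of Col3a1 intron 25 (0.307%) and of Hnrnpl intron 3 (0.293%), each from 1 read. Spop intron 5 was at 1.53% in H3B-8800 library 2, from 4 reads, and at 0 in the other 3. Eef1a1 intron 2 was at 0.463% in H3B-8800 library 4, on 20956 reads, against 0.351% to 0.362% in the others.

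The difference between H3B-8800 and vehicle had the opposite sign in T11, by the labels, in libraries that did not overlap; the difference between models was not tested. For the still spliced introns it was 0.412 percentage points in PyMT-M and 0.247 in AT3, and -0.109 in T11. For the other short introns it was 8.98 in PyMT-M, 4.21 in AT3 and 2.77 in 2208L, and -3.56 in T11. For the retained introns it was 38.6, 22.5 and 19.7, and -25.9 in T11. Whether T11 labels were exchanged was not tested.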

How the results depend on the processing

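No result reversed its direction. The set held 848 introns at a threshold of 1% and 2416 at 5%, 840 at a depth of 1000 and 2401 at 200, 861 without PyMT-M H3B-8800 libraries 1 and 2, and 1086 to 1188 without each library in turn. Still spliced introns called higher in AT3 (10) were 22 with TMM library sizes, 24 with DESeq2, 6 without a depth filter, 5 without the libraries with muscle or B cell transcripts and 3 with AT3 alone. Those of 2208L (9) were 19 with DESeq2, 16 with a mean of at least 5 intronic reads and 3 without those libraries. Those of PyMT-M (221) were 103 and 98 under the latter pair of settings, and the T11 introns called lower (16) were 9 without a depth filter and 2 without those libraries. The other short introns called were 1266 with DESeq2 and 403 with AT3 alone in AT3, and without those libraries 265 in 2208L and 393 in T11.

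Host genes called without those libraries were 97 higher and 16 lower in PyMT-M, 0 higher in AT3, 13 and 12 in 2208L and 7 and 20 in T11. AT3 host genes called higher were 18 with DESeq2 (3 lower), 1 without a filter and 6 without T11, and T11 host genes called lower were 153 with DESeq2. Replicate numbers did not pair the samples, with correlations of deviations from -0.406 to 0.483. With a replicate block, introns called were 115 in PyMT-M, 1 in AT3 and 7 in T11, other short introns 258 in AT3, and host genes 0 higher in AT3 and 62 lower in T11. The cause of these differences was not tested.

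Leaving out 1 library gave introns called from 144 to 222 in PyMT-M, 1 to 12 in AT3, 3 to 8 in 2208L and 3 to 21 in T11, and other short introns from 2646 to 3051, 177 to 857, 349 to 670 and 498 to 1122. Host genes called higher ran from 94 to 173, 0 to 62, 22 to 63 and 16 to 29, and lower from 26 to 43, 0 to 2, 6 to 33 and 40 to 133. The share that stayed low ran from 93.0% to 95.2%, 98.1% to 98.6% and 96.6% to 98.3% for the still spliced introns of AT3, 2208L and T11, and from 25% to 46.9%, 49.5% to 53.3% and 45.8% to 58.2% for the other short introns. It was 27.3% in AT3 and 53.3% in 2208L for the latter without the libraries with muscle or B cell transcripts. Both the block and the AT3 fits without a library rest on few samples, and a lone AT3 H3B-8800 library is assumed to vary like the others.

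As a median over introns, the percent per library of the still spliced introns averaged 0 in the vehicle groups of PyMT-M, AT3 and 2208L and in 2208L H3B-8800, 0.621% in PyMT-M H3B-8800, 0.154% in AT3 H3B-8800, 0.0524% in T11 labelled vehicle and 0 in T11 labelled H3B-8800. Of still spliced introns of 11 to 80 bases, 28.3% were spanned by an annotated exon and 70.7% of downstream exons began with G. The share beginning with G was 55.4% above 80 and up to 120 bases, 60.4% above 120 and up to 200, and 53.8% above 200. Among the other short introns it was 54.5%, 50.7%, 49.7% and 49.3%, from the shortest class to the longest. The flank GC difference was -1 point above 120 and up to 200 bases and -4 against the retained introns alone. Among alternative fits of single named introns, 68 missed the threshold and 72 kept it. Introns under 5 intronic reads per library limit the tests.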

Other observations

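In some still spliced introns, reads differed between libraries from C57BL/6 and from Balb/c mice. This comparison was chosen after the data were seen. Among 958 still spliced introns whose gene had at least 500 spliced reads in every library, 5 took a share of the gene's spliced reads that differed by over 5 times between strains with no overlap of libraries, all lower in Balb/c. The rule asks for depth in PyMT-M, grown in C57BL/6, so introns with few reads in C57BL/6 could hardly enter and the direction is set by that choice. Rps2 intron 5 (chr17:24721715-24721802) held 16.5% to 22.6% of the spliced reads of its gene in the 13 C57BL/6 libraries and 0.0888% to 1.16% in the 12 Balb/c libraries. Rps2 encodes a protein of the small ribosomal subunit and has many pseudogene copies. Its overlapping reads ranged from 1168 to 7219 and from 8 to 41.

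Hspa8 intron 3 had 2559 to 5154 overlapping reads in C57BL/6 and 38 to 226 in Balb/c, and intron 4 had 1499 to 4421 and 386 to 1040. Other Hspa8 introns were deep in both strains, such as intron 7 with 4327 to 7985 and 5458 to 16820. Eef1g intron 3 (chr19:8969226-8969363), of a translation elongation factor subunit, held 5.77% to 8.84% and 0.273% to 0.653%, and Rplp0 intron 3 (chr5:115561005-115561098), of the ribosomal stalk, 15.2% to 20.6% and 2.91% to 3.91%. Strain and tumor model cannot be told apart here, and the alignment of reads from Balb/c to the reference was not tested.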
